A study of Mus musculus with 6 samples.

Results

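The 33 genes described here mark the lymphocytes of a lymph node: 13 are characteristic of B cells and 20 of T cells. They were chosen by name, and each was found once among the 24415 gene IDs of the count table by its mouse gene ID. All 33 passed the filter on low counts, through which 15994 genes were tested. The RNA came from inguinal white fat, a depot under the skin of the groin, of 6 C57BL/6 mice that were 12 weeks old and not fasted. A library was sequenced from each mouse, 3 of them WT and 3 labelled Hsp20 KO, in which the targeted gene is Hspb6, for a small heat shock protein. The sources used here do not state how the knockout allele was built, whether it acts in all cells, the sex of the mice or how the depot was trimmed around its lymph node.

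Inguinal fat surrounds a lymph node, an organ in which B cells gather in follicles and T cells in the zones between them. B cells sense antigen through a membrane antibody that signals through the chains encoded by Cd79a and Cd79b, and T cells through a receptor that signals through the CD3 chains encoded by Cd3d, Cd3e and Cd3g. Receptor signals are tuned by co-receptors, by inhibitory receptors and by SRC-family kinases, and cell identity is held by transcription factors such as Pax5 in B cells and Tcf7 in T cells. Cxcr5 guides cells to follicles and Ccr7 to T cell zones. Fat also holds lymphocytes of its own outside the node.

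Libraries held between 14078936 counts, in the one labelled Hsp20 KO replicate 3, and 32648746 counts, in WT replicate 3. The targeted gene Hspb6 had 12.6, 9.43 and 8.95 CPM (read counts scaled to a common library size by TMM) in WT replicates 1 to 3, and 8.86, 1.51 and 3.94 CPM in the libraries labelled Hsp20 KO replicates 1 to 3. The level in the library labelled replicate 1 was close to WT, so the 3 libraries are called KO-labelled below, and every direction compares them, this one included, with WT. The log2 change of Hspb6 was -1.08 ± 0.51 (SE) and did not pass (edgeR quasi-likelihood test, Benjamini-Hochberg adjusted p = 0.227). The label of the tissue was checked on 8 fat cell markers, among them Adipoq and Plin1, which summed to between 11835 and 17314 CPM in each library. Of 8 genes of lymph node stroma and vessels, none was at 0 in any library. Only 30 of the 15994 genes tested were at 0 in a library, so this tells little about the node. Ccl21a, a chemokine of T cell zones, lay between 154 and 292 CPM. Glycam1, a mucin of the high endothelial venules through which lymphocytes enter, lay between 20.1 and 96.2 CPM. The counts of the 33 genes together made up between 0.136% and 0.252% of a library. In whole tissue, fewer cells of a type and less RNA per cell cannot be told apart, and neither can cells of the node and cells of the surrounding fat.

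The stretches of DNA before a start site in each of 4 members are shown. These 4 are the only members with a promoter sequence that hold the PU.1/Spi-B or EBF1 letters described below. That each of them holds such a site is therefore no result. Members without these letters, such as Il7r and Spib, are not shown, whatever their log2 change. Each stretch is the 250 bases before a RefSeq start site on GRCm38.p6, read 5′ to 3′ along the gene. These need not lie upstream of the whole gene. The windows of Cd72, Cd37 and Cd22 lie inside the gene spans, whose 5′ ends are at 43455102, 45239340 and 30880342. The window of Cd5 overlaps its gene span, whose 5′ end is at 10739026. Capitals mark the letters GAGGAAGT or their reverse complement ACTTCCTC, a site read by the related factors PU.1 and Spi-B, in Cd72, Cd37 and Cd5. In Cd5 they also mark a second, shorter match to AGGAAG, the core shared by many ETS factors and contained in the longer site. In Cd22 they mark TCCC and GGGA around any pair of bases, a site of the B cell factor EBF1. Cd72 and Cd37 had the most negative and the second least negative log2 change among the B cell genes, Cd5 had the highest among the T cell genes, and Cd22 is the member nearest to Hspb6.
Cd72 chr4:43454627-43454876 (- strand): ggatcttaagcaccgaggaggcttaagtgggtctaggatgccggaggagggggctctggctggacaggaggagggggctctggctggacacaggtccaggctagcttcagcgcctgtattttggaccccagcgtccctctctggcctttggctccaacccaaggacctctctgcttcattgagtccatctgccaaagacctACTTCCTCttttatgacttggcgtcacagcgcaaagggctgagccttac
Cd37 chr7:45238840-45239089 (- strand): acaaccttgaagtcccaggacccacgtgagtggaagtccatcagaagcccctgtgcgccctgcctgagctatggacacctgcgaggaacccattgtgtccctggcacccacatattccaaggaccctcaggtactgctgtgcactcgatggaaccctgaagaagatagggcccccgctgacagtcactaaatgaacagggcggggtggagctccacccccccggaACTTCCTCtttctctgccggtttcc
Cd5 chr19:10738975-10739224 (- strand): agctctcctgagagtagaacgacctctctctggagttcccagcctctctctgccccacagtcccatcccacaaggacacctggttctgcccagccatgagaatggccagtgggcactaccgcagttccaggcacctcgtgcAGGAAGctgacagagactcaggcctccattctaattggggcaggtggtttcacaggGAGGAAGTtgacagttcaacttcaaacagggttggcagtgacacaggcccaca
Cd22 chr7:30879029-30879278 (- strand): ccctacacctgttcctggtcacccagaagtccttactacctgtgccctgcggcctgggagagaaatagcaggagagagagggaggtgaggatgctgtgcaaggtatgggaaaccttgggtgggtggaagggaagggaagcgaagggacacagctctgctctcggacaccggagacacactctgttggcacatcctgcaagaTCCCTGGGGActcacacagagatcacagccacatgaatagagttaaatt

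Promoter sequences were matched for 23 of the 33 members, 9 B cell and 14 T cell genes, some with several start sites. These genes had 11 and 23 windows. The PU.1/Spi-B letters were found in 2 of the 11 B cell windows (Cd37 and Cd72) and in 1 of the 23 T cell windows (Cd5), against 2.44% of 32851 RefSeq promoter windows of the same length. The shorter AGGAAG was found in 6 of the 11 and 11 of the 23, against 29.5% of all windows. The EBF1 letters were found in Cd22 alone among the matched members (0.779% of all windows). Neither the octamer ATTTGCAT, a site of POU factors, nor CTTTGAA, a site of Tcf7 and Lef1, was found in a matched member (526 and 1464 of the 32851 windows). Both strands were searched, and a match is a match of letters only.

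Across the genotypes, the B cell genes had log2 changes below 0 and most T cell genes had log2 changes above 0, and none passed the test. All 13 B cell genes had a negative log2 change, from -0.57 for Cd72 to -0.003 for Blk, with a median of -0.25. Of the 20 T cell genes 18 had a positive log2 change, up to 0.54 for Cd5, and 2 a negative one, Il7r at -0.63 and Ctla4 at -0.32, with a median of 0.25. Over all genes tested the median was 0.0006, with 49.9% negative and 50.1% positive. Genes of a list moved together over the 6 libraries (median correlation 0.93 for B cell and 0.83 for T cell genes). Their shared signs are therefore not separate observations. By edgeR's quasi-likelihood test with Benjamini-Hochberg adjustment over all 15994 genes, 0 of 13 and 0 of 20 passed a threshold of 0.05, against 7.65% of all genes tested. At an unadjusted p under 0.05, 3 B cell genes (Spib, Cd72 and Cxcr5, all negative) and 5 T cell genes (Cd4, Cd5, Cd6 and Cd28, positive, and Il7r, negative) were counted, against 26.0% of all genes. DESeq2 called 0 B cell genes and 1 T cell gene, Il7r, against 13.5% of all genes, and limma-voom 0 of either, against 7.29%. The 2 groups of libraries did not overlap for 3 of the 33 members, Spib and Il7r lower and Cd28 higher, against 32.5% of all genes tested.

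A single library decided the B cell count. Without KO-labelled replicate 2, edgeR called 11 of the 13 B cell genes lower, all but Cd37 and Blk, with a median log2 change of -0.67, against 1.77% of genes called lower in that comparison. Without KO-labelled replicate 1, the library with a near-WT level of Hspb6, it called 0 of 13, against 10.3% of genes, the median was -0.09 and 4 of the 13 were positive. Without KO-labelled replicate 3 it called 0, against 3.64% of genes, with a median of -0.10 and again 4 positive. For the T cell genes, leaving out KO-labelled replicate 3 gave 3 calls, Cd3e, Cd5 and Cd6, all higher, with a median of 0.39, against 2.01% of genes called higher. Leaving out WT replicate 1 gave 1 call, Il7r, lower, against 2.02% of genes called lower. With the replicate number as a block it called 0 of the 33, against 2.47% of genes.

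**Figure D1:**
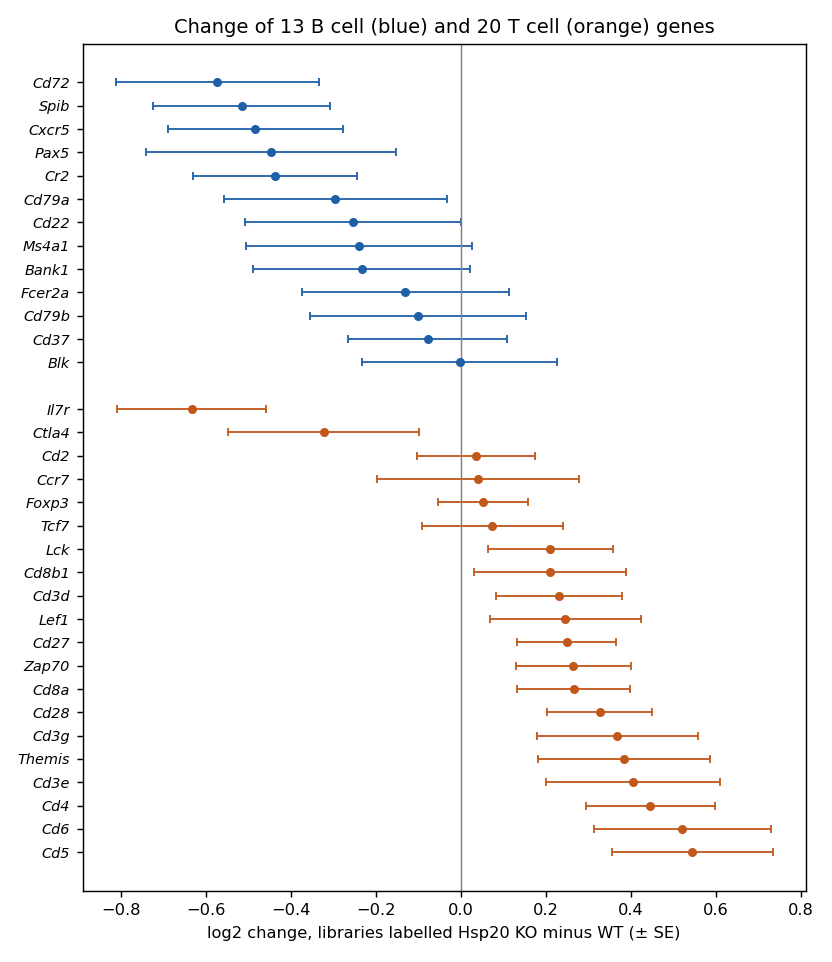
Log2 change of each member, KO-labelled minus WT libraries (horizontal axis; points are edgeR estimates, bars ± SE, n = 3 each), for 13 B cell genes (blue) and 20 T cell genes (orange), sorted within each list. All B cell points lie at or left of 0, down to -0.57 for Cd72, and all T cell points but Il7r and Ctla4 lie right of it, though no member passed the test.

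The signalling chains of the B cell receptor were high in KO-labelled replicate 2 and low in the other KO-labelled libraries. Cd79a had 152, 181 and 175 CPM in WT replicates 1 to 3 and 103, 207 and 103 CPM in KO-labelled replicates 1 to 3. Its WT values thus lay between those of the KO-labelled libraries, and the log2 change was -0.29 ± 0.26 (SE; edgeR adjusted p = 0.523). Cd79b had 104, 106 and 99.96 CPM in WT and 73.8, 144 and 70.5 CPM in the KO-labelled libraries, in the same arrangement (log2 change -0.10 ± 0.25).

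Surface proteins of B cells followed the same arrangement of libraries to different degrees. Cd22, an inhibitory receptor that binds sialic acid, had 169, 168 and 159 CPM in WT and 100.5, 207 and 109 CPM in KO-labelled replicates 1 to 3. Cd72, an inhibitory receptor of the C-type lectin family that macrophages also carry, had 53.9, 62.8 and 59.1 CPM in WT and 30.8, 57.4 and 29.8 CPM in the KO-labelled libraries. Here KO-labelled replicate 2 did not exceed WT but lay among its values, and the log2 change of -0.57 ± 0.24 (SE) did not pass (edgeR adjusted p = 0.183, from 0.0065 to 0.359 over the alternatives). Cr2, a complement receptor of B cells and follicular dendritic cells, had 83.2, 71.1 and 76.5 CPM in WT and 46.8, 76.7 and 46.7 CPM in the KO-labelled libraries (log2 change -0.44 ± 0.19). Fcer2a, the low-affinity IgE receptor of mature B cells, had a log2 change of -0.13 ± 0.24, Ms4a1, which encodes CD20, of -0.24 ± 0.27, and Cd37, a tetraspanin that other white blood cells also carry, of -0.08 ± 0.19. In each of these 3 genes KO-labelled replicate 2 was the highest of the 6 libraries.

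Among the remaining B cell genes, the transcription factors and Cxcr5 had the more negative values. Spib, an ETS factor of B cells and plasmacytoid dendritic cells, had 90.5, 91.9 and 90.3 CPM in WT and 50.1, 88.8 and 51.6 CPM in KO-labelled replicates 1 to 3. It was the only B cell gene whose groups did not overlap, by the narrow gap between 88.8 and 90.3 CPM (log2 change -0.52 ± 0.21 SE, edgeR adjusted p = 0.168, from 0.0055 to 0.340 over the alternatives). The lower end of that range was reached without KO-labelled replicate 2. Pax5, which commits cells to the B lineage, had 47.8, 40.3 and 45.0 CPM in WT and 23.1, 51.1 and 23.1 CPM in the KO-labelled libraries (log2 change -0.45 ± 0.29). Cxcr5, the homing receptor for follicles that is also carried by follicular helper T cells, had 40.6, 46.2 and 44.5 CPM in WT and 26.4, 43.2 and 24.0 CPM in the KO-labelled libraries (log2 change -0.48 ± 0.21, edgeR adjusted p = 0.189). Blk, a SRC-family kinase, had 38.8, 35.3 and 36.0 CPM against 28.7, 52.7 and 28.3 CPM, so its group means of 36.7 ± 1.84 and 36.5 ± 13.96 CPM (SD, n = 3 each) hardly differed. Its sign turned with upper quartile normalization (log2 change 0.01). Bank1, a scaffold protein of receptor signalling, had a log2 change of -0.23 ± 0.26.

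The CD3 chains had their highest levels in KO-labelled replicates 1 and 2. Cd3e had 41.3, 51.3 and 44.5 CPM in WT and 67.1, 73.1 and 40.6 CPM in KO-labelled replicates 1 to 3. The first 2 of these lay above all WT libraries and the third below them, and the log2 change was 0.40 ± 0.20 (SE; edgeR adjusted p = 0.257, from 0.0357 to 0.513 over the alternatives). Cd3g had 27.8, 34.6 and 31.3 CPM in WT and 42.5, 49.6 and 28.4 CPM in the KO-labelled libraries, and Cd3d had a log2 change of 0.23 ± 0.15.

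The co-receptors separate helper from cytotoxic T cells. Cd4, which macrophages and dendritic cells can also carry, had 50.8, 64.9 and 52.2 CPM in WT and 87.2, 80.2 and 60.9 CPM in KO-labelled replicates 1 to 3 (log2 change 0.45 ± 0.15, edgeR adjusted p = 0.115, from 0.0577 to 0.311 over the alternatives). Only WT replicate 2 overlapped the KO-labelled values. Cd8a had 54.4, 62.8 and 53.8 CPM in WT and 72.2, 77.8 and 55.4 CPM in the KO-labelled libraries (log2 change 0.27 ± 0.13), and Cd8b1, the beta chain, had a log2 change of 0.21 ± 0.18.

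Receptors that tune T cell activation gave both the most positive and some of the most negative values. Cd5, which dampens receptor signals and also marks B-1 cells, had 20.6, 23.3 and 18.9 CPM in WT and 31.1, 38.2 and 21.8 CPM in KO-labelled replicates 1 to 3 (log2 change 0.54 ± 0.19, edgeR adjusted p = 0.123, from 0.0373 to 0.326 over the alternatives). Cd6, its neighbour on chromosome 19 and a related scavenger-type receptor, had 23.9, 29.4 and 24.5 CPM in WT and 39.8, 46.3 and 25.0 CPM in the KO-labelled libraries. In both genes KO-labelled replicates 1 and 2 lay above WT and replicate 3 among the WT values. Cd28, the main costimulatory receptor, had 14.9, 16.3 and 16.2 CPM in WT and 19.99, 22.7 and 16.6 CPM in the KO-labelled libraries, and its groups did not overlap (log2 change 0.33 ± 0.12, edgeR adjusted p = 0.146). Ctla4, which opposes Cd28 and is abundant in regulatory T cells, had 5.51, 9.11 and 8.37 CPM in WT and 6.72, 6.78 and 4.75 CPM in the KO-labelled libraries (log2 change -0.32 ± 0.22). It was the least abundant member in CPM, with 64 counts in its smallest library. Cd27, a costimulatory receptor of the TNF receptor family, had a log2 change of 0.25 ± 0.12. The adhesion receptor Cd2 had one of 0.04 ± 0.14, and its sign turned when WT replicate 3 or KO-labelled replicate 1 or 2 was left out (-0.03, -0.005 and -0.07).

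Il7r, the receptor chain for interleukin 7 on naive T cells, innate lymphoid cells and some other cells, was the T cell gene with the smallest p. It had 52.3, 83.7 and 75.1 CPM in WT replicates 1 to 3 and 49.7, 46.8 and 39.4 CPM in KO-labelled replicates 1 to 3. All KO-labelled values lay below all WT values, though WT replicate 1 was close to them. The log2 change was -0.63 ± 0.17 (SE; edgeR adjusted p = 0.0676, from 0.0095 to 0.208 over the alternatives), and DESeq2 called it (adjusted p = 0.0095). Ccr7, the homing receptor of the T cell zone that B and dendritic cells also carry, had 54.7, 70.5 and 57.1 CPM in WT and 58.2, 86.5 and 42.2 CPM in the KO-labelled libraries. Its values in the KO-labelled libraries enclosed those of WT, and the log2 change of 0.04 ± 0.24 turned negative with limma-voom (-0.002).

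Kinases of the T cell receptor and the T cell transcription factors had small positive values. Lck, the kinase that starts receptor signalling, had 74.5, 84.8 and 81.1 CPM in WT and 99.5, 107 and 71.2 CPM in KO-labelled replicates 1 to 3 (log2 change 0.21 ± 0.15). Zap70, the kinase that Lck activates, had a log2 change of 0.26 ± 0.14, and Themis, an adaptor of developing T cells, of 0.38 ± 0.20. Tcf7 and Lef1, paired factors of naive T cells, had log2 changes of 0.07 ± 0.17 and 0.25 ± 0.18. Foxp3, the factor of regulatory T cells, had 15.6, 18.8 and 17.8 CPM in WT and 19.0, 18.5 and 16.6 CPM in the KO-labelled libraries. Its log2 change was 0.05 ± 0.10, and its SD over the 6 libraries, 0.11 on the log2 scale, was the smallest of the 33 members.

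Relative to the WT mean of each gene, the B cell genes lay on average at -0.01, 0.03 and -0.02 on the log2 scale in WT replicates 1 to 3. They lay at -0.65, 0.25 and -0.68 in KO-labelled replicates 1 to 3. The WT libraries were thus close together, and the KO-labelled libraries lay on both sides of them. In KO-labelled replicates 1 and 3 none of the 13 B cell genes was above its WT mean, and in replicate 2, 9 were. The T cell genes lay at -0.13, 0.16 and -0.03 in WT replicates 1 to 3 and at 0.28, 0.42 and -0.17 in KO-labelled replicates 1 to 3. KO-labelled replicate 2 was the highest of the 6 libraries for 9 of the 13 B cell genes and 15 of the 20 T cell genes, and KO-labelled replicate 3 was the lowest for 9 and 9. The median SD over the 6 libraries was 0.41 for the B cell genes and 0.28 for the T cell genes on the log2 scale, against 0.20 for all genes tested. Counting error alone was small beside this: the smallest library gave a counting coefficient of variation of between 2.61% and 12.5% for the members.

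**Figure D2:**
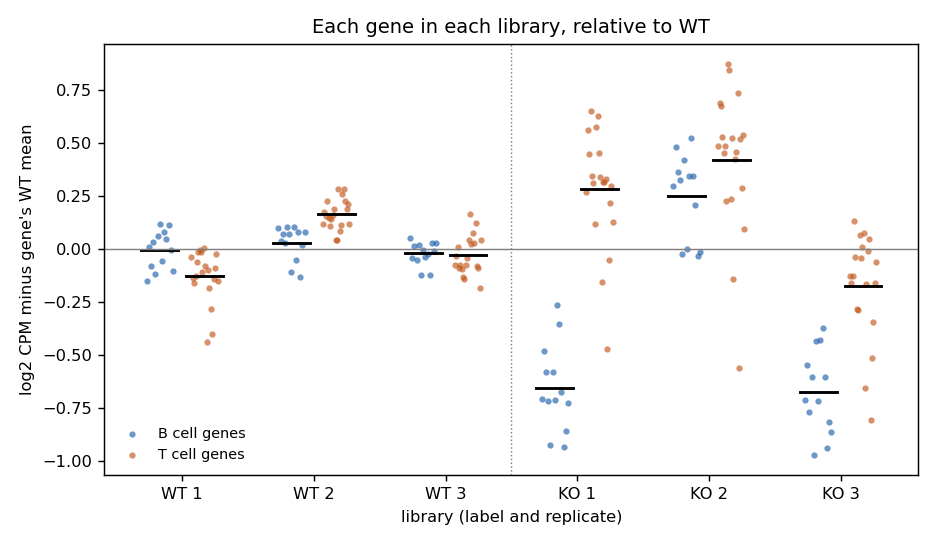
Log2 CPM of every member in each library, relative to that gene's WT mean (vertical axis), with B cell genes in blue and T cell genes in orange, and black lines for the list means; KO 1 to 3 are the KO-labelled replicates. The B cell genes lie near -0.65 in KO 1 and -0.68 in KO 3 and near 0.25 in KO 2, while the T cell genes lie above the B cell genes in all 3.

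Set against each other within a library, B cell genes were lower relative to T cell genes in the KO-labelled libraries. WT replicates 1 to 3 held 30233, 37517 and 38636 counts of the 13 B cell genes and 18030, 26228 and 24503 counts of the 20 T cell genes. These are ratios of 1.68, 1.43 and 1.58 B cell counts per T cell count. KO-labelled replicates 1 to 3 held 21312, 31505 and 10252 B cell counts and 25533, 22134 and 8902 T cell counts, ratios of 0.835, 1.42 and 1.15. The ratio was 1.56 ± 0.124 in WT and 1.14 ± 0.295 in the KO-labelled libraries (SD, n = 3 each). The groups did not overlap, but KO-labelled replicate 2 lay just under WT replicate 2. As a difference of mean log2 CPM, B minus T relative to WT was -0.93, -0.17 and -0.50 in KO-labelled replicates 1 to 3, against 0.12, -0.13 and 0.01 in WT. The mean difference between the groups was -0.53, and -0.34 without KO-labelled replicate 1. The ratio is a score over chosen genes and was not tested. KO-labelled replicate 2, with more of both cell types' transcripts, and replicate 3, with less of both, thus both had lower ratios than the WT mean.

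A single pair of receptor genes gave a wider gap. Cd79a counts per Cd3e count were 3.68, 3.53 and 3.94 in WT replicates 1 to 3 and 1.54, 2.84 and 2.54 in KO-labelled replicates 1 to 3. The group means were 3.72 ± 0.206 and 2.31 ± 0.678 (SD, n = 3 each), and the lowest WT library lay above the highest KO-labelled library. This pair was picked after its values were seen.

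**Figure D3:**
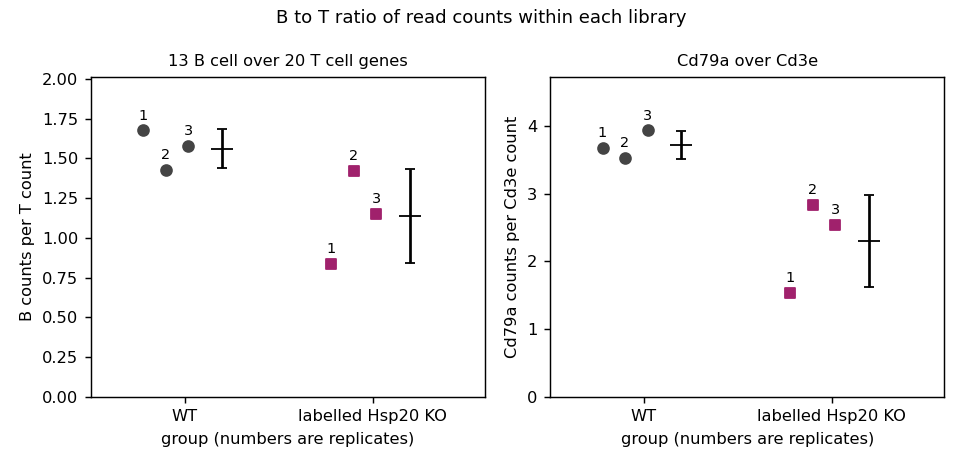
Ratio of B cell to T cell read counts within each library (left, the 13 and 20 members summed; right, Cd79a over Cd3e), with replicate numbers beside the points and the mean ± SD (n = 3) beside each group. On the left KO-labelled replicate 2 (1.42) nearly touches WT replicate 2 (1.43), and on the right the WT points lie between 3.53 and 3.94 and the KO-labelled points between 1.54 and 2.84.

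Members of a list also differed among themselves once the list's own level in each library was subtracted. That step makes some members positive and others negative by construction, so the values are a description. Relative to the B cell mean, Cd72 lay at -0.27, -0.27 and -0.30 in KO-labelled replicates 1 to 3 and Spib at -0.20, -0.28 and -0.14, both centred on their WT means. Blk lay at 0.30, 0.27 and 0.30, Cd79b at 0.17, 0.23 and 0.13, Fcer2a at 0.08, 0.17 and 0.24, and Cd37 at 0.39, 0.10 and 0.24. For these 6 of the 13 the groups did not overlap. Over all genes tested 14.4% did not overlap after the same subtraction, against 32.5% before it. The subtraction thus lowered the share of the other genes by itself, and nothing is read from the members' count against it. The values of Cd72 and Blk were thus nearly alike in the 3 KO-labelled libraries, though the B cell mean itself differed widely between these libraries. Relative to the T cell mean, the groups did not overlap for 8 of the 20 genes (15.2% of all genes after this subtraction, with the same limit). Cd3g, Cd4, Cd5 and Cd6 were higher, and Cd2, Ctla4, Il7r and Tcf7 lower. Il7r stood farthest out, at -0.75, -0.98 and -0.63 in KO-labelled replicates 1 to 3, followed by Ctla4 at -0.43, -0.56 and -0.47.

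**Figure D4:**
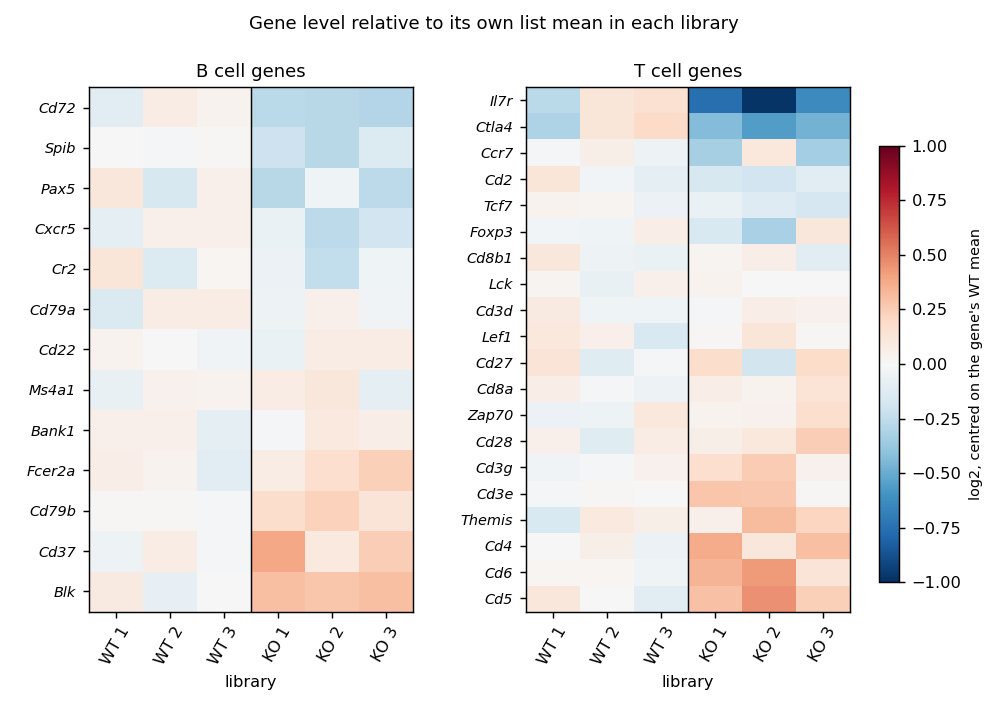
Level of each member in each library after subtracting the mean of its own list, centred on its WT mean (colour, log2 scale from -1 to 1, red higher and blue lower), with members sorted by the difference between the groups. Il7r (-0.63 to -0.98) and Ctla4 are blue in all 3 KO-labelled libraries, Cd5 and Cd6 red, and among B cell genes Cd72 is blue and Blk red.

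Ratios of counts between T cell genes are given as a description, and numbers of cells cannot be read from them. There were 0.934, 1.03 and 0.969 counts of Cd4 per count of Cd8a in WT replicates 1 to 3 and 1.21, 1.03 and 1.099 in KO-labelled replicates 1 to 3, so the groups overlapped at 1.03. Foxp3 counts per 100 counts of Cd4 were 30.7, 29.0 and 34.2 in WT and 21.8, 23.1 and 27.3 in the KO-labelled libraries. The means of this ratio were 31.3 ± 2.63 and 24.1 ± 2.90 (SD, n = 3 each) and the groups did not overlap. Foxp3 itself had a log2 change of 0.05 and Cd4, which other cells can also carry, one of 0.45. The groups did not overlap for 32.5% of single genes tested, and no such share was computed for ratios. Neither ratio was tested.

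Over the 6 libraries the B cell genes moved nearly as a block. The median Pearson correlation of log2 CPM was 0.93 over 78 pairs of B cell genes (lowest 0.74) and 0.83 over 190 pairs of T cell genes (lowest -0.39). Over 260 pairs of a B and a T cell gene it was 0.26, and single pairs ranged from -0.50 to 0.94. These describe 6 libraries that share their genotype groups and scaling. Il7r had a correlation of -0.03 with the mean of the other T cell genes and Ctla4 of 0.40, while the other 18 lay between 0.73 and 0.98. Among 14648 other genes with a mean of at least 1 CPM, the 5 most like the B cell mean over the 6 libraries were Lrrc75b, Stx16, Wdr20, Hip1r and Fcrl1, an Fc receptor-like protein of B cells, with Pearson's r from 0.989 to 0.995. The 5 most like the T cell mean were Rps3, Zfp433, Traf1, Spint2 and Fau, with r from 0.984 to 0.993. A search of 14648 genes over only 6 libraries gives high correlations by itself, so nothing is read from these names.

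Per length of exon, Cd79a was the most abundant of the members. In RPKM, counts scaled by the length of the merged exons and by library size, it stood at 116 ± 10.5 in WT (SD, n = 3), followed among the B cell genes by Cd79b at 72.1 ± 2.09, Fcer2a at 45.4 ± 3.36 and Cd37 at 39.0 ± 2.39. Cd22, Spib and Ms4a1, between 32.2 and 33.9 RPKM, did not differ from each other beyond their spread. Cd72, Bank1, Blk, Cxcr5 and Cr2 followed between 21.2 and 10.5 RPKM, and Pax5 was lowest at 5.54 ± 0.472 RPKM. Among the T cell genes Tcf7, Lck, Cd2, Cd3e, Ccr7 and Cd3g, between 30.6 and 35.1 RPKM, overlapped in their spread. Cd8b1, Il7r, Cd8a, Cd4 and Cd3d lay between 16.8 and 22.8 RPKM. The lowest were Foxp3, Ctla4, Cd28 and Themis, from 4.25 to 2.01 RPKM.

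Of the 13 B cell genes 4 lie on chromosome 7, the chromosome of Hspb6 (30552535 to 30555443 on GRCm38), and none of the 20 T cell genes does. Cd22 (30865404 to 30880342) lies 310 kb from Hspb6, Cd79a at -5651 kb, Spib at 13971 kb and Cd37 at 14678 kb. The median log2 change of these 4 was -0.27, and that of the 9 B cell genes on other chromosomes -0.24. Neighbouring members of different lists had values of opposite sign. Most pairs of a B and a T cell gene did, wherever they lie, so nothing about position is read from this. On chromosome 9 Cxcr5 (44511787 to 44526444) had a log2 change of -0.48, while Cd3g, Cd3d and Cd3e (44969572 to 45009663) had 0.37, 0.23 and 0.40. On chromosome 19 Cd5 and Cd6 (10718107 to 10830062) had 0.54 and 0.52, while Ms4a1 (11249679 to 11266149) had -0.24.

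Other genes of B and T cells, listed apart from the members, lay mostly on the same sides. They were measured in the same libraries and chosen with earlier results known, so they are not separate support. Of 18 measured other B cell genes 15 had a negative log2 change (median -0.20), and of 21 other T cell genes 17 a positive one (median 0.16). In both lists 0 passed (edgeR adjusted p under 0.05), with 1 and 5 at an unadjusted p under 0.05, against 26.0% of all genes. DESeq2 called 0 and 2 (Ptpn22 and Skap1), against 13.5% of all genes, and limma-voom 0 and 0. The smallest p among the B cell genes belonged to Siglecg, an inhibitory receptor (log2 change -0.58), Blnk, an adaptor (-0.41), and Vpreb3 (-0.48), and among the T cell genes to Skap1, an adaptor of adhesion (0.65), Cd40lg, the helper signal to B cells (0.68), and Ptpn22, a phosphatase that dampens signalling (-0.49). Without KO-labelled replicate 2, edgeR called 10 of the 18 B cell genes lower, against 1.77% of genes called lower. Of the 21 T cell genes it called 1 lower without WT replicate 1 (Ptpn22), against 2.02% of genes. It called 1 higher without KO-labelled replicate 3 (Bcl11b), against 2.01%. With no filter on low counts and with the replicate block it called 1 higher (Skap1 in both), against 3.4% and 1.41%. Ighm, Ighd and Igkc were not analysed here.

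Genes of other cell types are set beside these values, and their part in them was not tested. Whether their cells lay in the node or in the surrounding fat cannot be told. Of 8 genes of node stroma and vessels, edgeR called 4 higher and 0 lower, against 4.23% of genes called higher. Of the 8, 5 had a positive log2 change and 3 a negative one, down to -0.36, with a median of 0.48. Glycam1 had 20.1, 21.8 and 25.3 CPM in WT and 96.2, 75.8 and 45.8 CPM in KO-labelled replicates 1 to 3, so it rose 3.25-fold (edgeR adjusted p = 0.0122, from 5.14e-10 to 0.0647 over the alternatives). Chst4, a sulfotransferase of high endothelial venules, rose 2.32-fold, Fut7, a fucosyltransferase for selectin ligands, 2.40-fold and Ccl19, a ligand of Ccr7, 1.505-fold (edgeR adjusted p = 0.0125, 0.0226 and 0.0388). With the replicate block edgeR called 2 of the 8, Glycam1 and Chst4, against 1.41% of genes called higher (adjusted p = 0.0686 for Fut7 and 0.0817 for Ccl19). The calls also changed when a library was left out, as did the share over all genes. Without WT replicates 1 to 3 edgeR called 2, 1 and 0 of the 8, against 2.0%, 0.488% and 0.464% of genes called higher. Without KO-labelled replicates 1 to 3 it called 3, 2 and 4, against 5.82%, 2.0% and 2.01%. Without WT replicate 3, 4 were higher at an unadjusted p under 0.05, against 2921 of 16159 genes in either direction. The summed level of the 8 was 274 to 338 CPM in WT and 317 to 526 CPM in the KO-labelled libraries. Of 10 genes of natural killer and cytotoxic cells 4 had a positive log2 change, up to 0.75, and 6 a negative one, with a median of -0.14. Of these 10, edgeR called 0 higher and 3 lower, against 3.42% of genes called lower. The 3 were Klrb1c, Nkg7 and Gzmb (log2 changes -0.71, -0.61 and -1.499, edgeR adjusted p = 0.0226, 0.0342 and 0.0414). The replicate block ended all 3 calls (edgeR adjusted p = 0.0689, 0.0838 and 0.0604), and limma-voom that of Gzmb (0.0730). These 2 settings called 1.06% and 3.26% of genes lower. Without WT replicates 1 to 3 edgeR called 2, 0 and 0 of the 10 lower, against 2.02%, 0.358% and 0.328% of genes. At an unadjusted p under 0.05, 3 were lower each time. Over all genes 3723 of 16271, 3278 of 16179 and 2921 of 16159 had such a p in either direction. Without KO-labelled replicates 1 to 3 edgeR called 2, 0 and 1 lower, against 4.52%, 1.77% and 1.63% of genes. In the last it also called 1 higher, against 2.01%. Without replicate 2, 5 were lower at an unadjusted p under 0.05, against 3766 of 16259 genes in either direction.

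Of 13 macrophage genes, which bear on Cd72 and Cd4, all 13 had a negative log2 change (median -0.49) and 0 passed (edgeR), with 8 at an unadjusted p under 0.05, against 26.0% of all genes. DESeq2 called 5 of them lower, against 6.4% of genes called lower. Without KO-labelled replicate 1 edgeR called 8 lower, against 4.52% of genes. It called 1 lower without replicate 2 (Cd163) and 1 with no filter on low counts (Itgam), against 1.77% and 2.93% of genes. They summed to between 1878 and 2164 CPM in WT and between 1499 and 1978 CPM in the KO-labelled libraries, and none was at 0 in a library. The 3 with the smallest p were Itgam, Cd163 and Fcgr1 (log2 changes -0.63, -0.72 and -0.79). Of 8 dendritic cell genes and 8 genes shared by white blood cells 0 passed in either list (edgeR), with medians of -0.13 and -0.08. At an unadjusted p under 0.05 there were 2 and 1, against 26.0% of all genes. DESeq2 called 1 and 0, against 13.5%. Without KO-labelled replicate 2 the 8 shared genes had a median of -0.29. There edgeR called 0 of them, and 4 were lower at an unadjusted p under 0.05, against 3766 of 16259 genes in either direction. Of 10 plasma cell and germinal centre genes 0 passed (edgeR), with a median of -0.29. DESeq2 called 1, Bcl6 (log2 change -0.57), against 13.5% of all genes. Bcl6 was among 2 at an unadjusted p under 0.05 (edgeR), against 26.0%. Of the 8 fat cell markers 0 passed (edgeR), with a median of 0.16 and 1 at an unadjusted p under 0.05, against 26.0%.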

How the data were processed

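Libraries of inguinal fat from 6 mice were compared, 3 WT and 3 labelled Hsp20 KO. Per the submitters' processing notes, bcl2fastq, CASAVA 1.8, TopHat and DESeq were used, with mm10 and GRCm38 as builds. The sources used here give no read counter, gene annotation or strand setting, and reads of overlapping or antisense genes cannot be separated. The values deposited by the authors are raw counts per gene, 1 column per mouse. RefSeq GRCm38.p6 gave symbols for 24334 of 24415 gene IDs. The 81 without one took from 1.30% to 5.74% of the counts of a library.

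Genes were kept by filterByExpr (counts of at least 10, totals of at least 15), scaled by TMM and tested with edgeR 4.0.16 (R 4.3.3), by a quasi-likelihood test with genotype as the only term and Benjamini-Hochberg adjustment over all genes (threshold 0.05). Each SE was derived from the F statistic of the gene. Log2 CPM used a prior count of 2, and exon lengths came from GENCODE M21. The alternatives were DESeq2 1.42.0, limma-voom (limma 3.58.1), other scalings and filters, a replicate block and leaving out each library. The members and lists were chosen with earlier results of these data known. Named were all members, up to 3 genes of smallest p in each other list, and the 5 genes most like each list's mean. Ccl19, Ccl21a, Bcl11b and the fat cell markers were named outside this rule, after their values were seen. The labels name separate mice.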

Additional observations from a re-analysis of the deposited data

How the results depend on the processing

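The counts of 0 passing B cell and 0 passing T cell genes were the same with DESeq2 size factors, upper quartile normalization, no filter, a filter of 1 CPM in 3 libraries, limma-voom and the replicate block. DESeq2 called 1 T cell gene, Il7r (log2 change -0.63). Leaving out a library gave between 0 and 11 B cell calls and between 0 and 3 T cell calls. Over all genes tested 1223 were called, 2159 with DESeq2, 395 with the replicate block and between 128 and 1671 with a library left out. The labels do not state whether the replicate numbers pair the mice. Deviations of same-numbered libraries from their group means had correlations of -0.04, 0.09 and -0.10, which with 3 mice a group cannot decide this. The block left 0 members called. The median log2 change of the B cell genes kept its sign in every setting run (-0.67 to -0.09), as did that of the T cell genes (0.13 to 0.39) and the B minus T difference (-0.72 to -0.34, or -0.38 with the other B and T cell genes in place of the members). The settings without the chromosome 7 genes and with the other B and T cell genes were chosen after seeing the data.

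Signs turned for members near 0. Blk was at 0.011 with upper quartile normalization, and Ccr7 at -0.0016 with limma-voom and -0.012 with the replicate block. With a library left out, log2 changes ranged from -0.51 to 0.082 for Cd79b, from -0.51 to 0.056 for Fcer2a, from -0.35 to 0.076 for Cd37, from -0.36 to 0.15 for Blk, from -0.066 to 0.18 for Cd2, from -0.27 to 0.26 for Ccr7, from -0.039 to 0.25 for Tcf7 and from -0.025 to 0.11 for Foxp3. The cause was not tested. The smallest library held 14078936 counts, and 3 libraries a group limit what the test can call.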
